A study of Arabidopsis thaliana with 6 samples.

Results

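The genes described here are 26 protein genes of the Arabidopsis thaliana plastid genome that encode ribosomal proteins, RNA polymerase subunits and other proteins outside the photosynthetic complexes. They were chosen by locus and name: every probe set that the platform annotation ties to a single plastid gene, leaving out the photosystem, cytochrome, ATP synthase, rubisco and NDH genes. They form 26 of the 69 plastid genes with a probe set of their own and 26 of 22746 non-control probe sets. By role, 15 encode ribosomal proteins, 4 encode polymerase subunits and 7 encode other proteins. A further 7 probe sets for genes of these kinds are listed with more than 1 gene and were not analysed here.

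RNA came from rosette leaves of 2 groups with 3 arrays each. The pho3 plants carry a Feldmann T-DNA insertion in the ws-2 background (stock N2614), and the wild-type plants are ws-2 (stock N1601). Both were stratified for 3 days at 4 °C and grown at 23 °C and 60% humidity with 16 h of light to 8 h of dark, on Murashige and Skoog medium holding 1% sucrose for 10 days and on compost after that. Leaves were taken at growth stage 6.0. As background, pho3 is known for a lesion in the phloem sucrose transporter gene SUC2, which has no named probe set here. The SUC2 transcript was therefore not read, and the insertion was not checked. The sources used here do not give the number of plants behind an array, so p-values measure the spread between arrays, which may be technical.

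Plastids keep a small genome with its own transcription and translation. A bacterial-type polymerase, with core subunits from the rpo genes, transcribes most plastid genes, while phage-type polymerases encoded in the nucleus transcribe others, the rpoB operon among them. The plastid ribosome is also of bacterial type, with some proteins made in the plastid and the rest imported. Plastid messengers in leaves largely lack stable poly(A) tails, and tails there mark RNA for decay. Per the labels' protocols the label was primed with an oligo(dT) primer, so the amount of a plastid RNA and how readily it was primed cannot be told apart here. Nor can fewer plastids per leaf and less RNA per plastid.

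The arrays did not separate cleanly by label. Over the 13983 probe sets tested, the scaled median absolute deviation of log2 differences was 0.31, 0.31 and 0.27 between wild-type replicate 1 and pho3 replicates 1, 2 and 3. It was 0.48 and 0.47 between wild-type replicate 1 and wild-type replicates 2 and 3. The pho3 replicate 3 array stood 0.43 and 0.44 from the other pho3 arrays, and 0.35 and 0.37 from wild-type replicates 2 and 3. Whether these 2 arrays carry the right labels could not be checked from the deposited values, so every difference of pho3 minus wild type rests on the labels as given. Results are therefore given by the labels, with counts and the values of some genes given again without 1 or both of these arrays. Leaf identity was checked with 16 marker genes, of which 8 have a named probe set. All 8 reached the 40th percentile of the array's signals (26.2 to 28.4) on 3 or more arrays, while the single named root marker, PYK10, was under it on all 6 arrays. Flower and seed markers have no named probe set here.

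The first question was whether pho3 leaves differ from wild-type leaves in these genes. The mean log2 signal was lower in pho3 for 26 of 26 genes, with log2 differences from -1.37 to -0.07. That holds for 25 of the 25 genes tested, against 50.2% of all probe sets tested. After quantile normalization 22 of 25 were lower, with clpP at 0.010, ccsA at 0.027 and rpl32 at 0.035. A gene was tested when its signal reached the 40th percentile on 3 or more arrays, which rpoB did not. None of the 25 passed limma's test over all 6 arrays (adjusted p from 0.375 to 0.748), nor did any other probe set (0% of 13983 lower and 0% higher). At an unadjusted p under 0.05, 10 of 25 were lower and 0 higher, where 4.85% of all probe sets tested were lower. The groups did not overlap for 4 of 25 genes, against 5.81% of all probe sets tested that were lower in this way.

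The order of the arrays was similar for most genes. The lowest signal lay on pho3 replicate 1 or 2 for 24 of 26 genes, and the highest on wild-type replicate 2 or 3 for 26 of 26. Both pho3 replicates 1 and 2 lay below the other 4 arrays for 19 of 26 genes, the exceptions being matK, rpoB, rps4, clpP, rpl14, rpl16 and rpl32. Both of these wild-type arrays lay above all 3 pho3 arrays for 22 of the 25 genes tested, against 26.9% of all probe sets tested. Wild-type replicate 1 read below both other wild-type arrays for 25 of 26 genes. It read below pho3 replicate 3 for 21 of 26, or 20 of the 25 tested, against 47.3% of all probe sets tested. The other counts over 26 genes were not taken over all probe sets, so they describe these genes only.

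**Figure D1:**
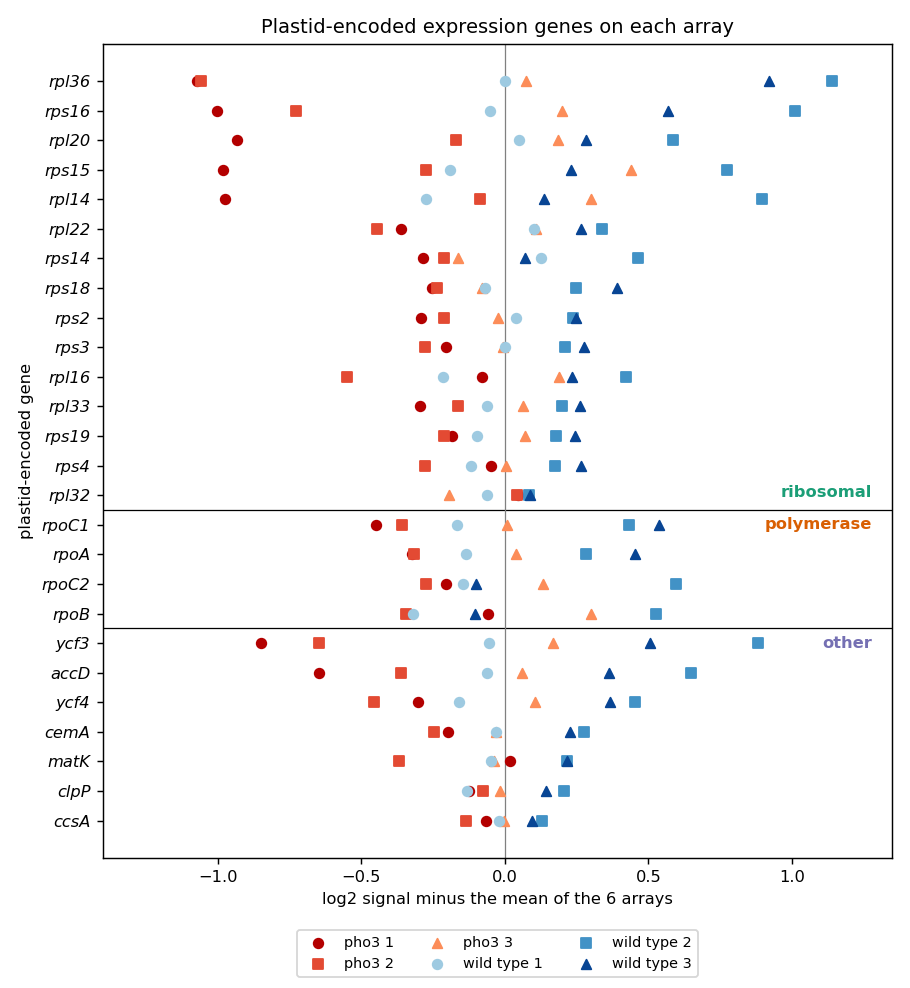
Log2 signal of each plastid-encoded expression gene on each array, less that gene's mean over the 6 arrays (x axis), with genes in rows by class and 1 point per array. The point furthest left is pho3 replicate 1 or 2 for 24 of 26 genes and the point furthest right is wild-type replicate 2 or 3 for all 26; pho3 replicate 3 and wild-type replicate 1 both fall between these pairs of arrays for 16 of 26.

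Ribosomal protein genes spanned the widest range of differences. The gene rpl36 (ArthCp057) encodes one of the smallest proteins of the large ribosomal subunit. Its signal was 106, 107 and 234 on the 3 pho3 arrays in replicate order, against 222, 489 and 420 on those of wild type. The first 2 pho3 arrays were lowest, and pho3 replicate 3 overlapped wild-type replicate 1. The pho3 mean was 149 ± 73.8 and the wild-type mean 377 ± 139 (SD, n = 3). The log2 difference was -1.37 (SE 0.41, limma adjusted p = 0.375). Without wild-type replicate 1, rpl36 fell by 1.71 on the log2 scale (SE 0.36, limma adjusted p = 0.0479). It was the single one of the 25 genes to pass there, against 0.837% of all probe sets tested that were lower. That array was the lowest wild-type array for rpl36, so leaving it out enlarges the difference by construction and gives no separate support. Over all alternatives its adjusted p ranged from 0.000987 to 0.733.

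The next largest difference was that of rps16 (ArthCp004), an intron-containing gene for a small-subunit protein. Its signals were 78.3, 94.8 and 180 in pho3, against 151, 316 and 233 in wild type. The pho3 arrays 1 and 2 were again lowest, and replicate 3 of pho3 exceeded replicate 1 of wild type. The log2 difference was -1.02 (SE 0.38, limma adjusted p = 0.375).

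For 4 of the 15 ribosomal genes all pho3 arrays lay below all wild-type arrays, against 5.81% of all probe sets tested. The same held for 8 of 33 photosynthesis genes and 2 of 9 NDH genes tested, so it is not particular to ribosomal genes. The gene rps2, for a small-subunit protein, read 919, 972 and 1107 in pho3, against 1156, 1325 and 1337 in wild type. The gene rps3, also of the small subunit, read 897, 853 and 1030 in pho3, against 1034, 1197 and 1254 in wild type. In both genes the gap between the groups was narrow, with pho3 replicate 3 just under wild-type replicate 1. The small-subunit gene rps18 read 360, 364 and 406 in pho3, against 409, 510 and 563 in wild type. Its gap between the same 2 arrays was narrow as well. The gene rps14 read 32.5, 34.1 and 35.3 in pho3, against 43.2, 54.6 and 41.6 in wild type. These signals of rps14 lie just above the 40th percentile of the arrays. The log2 differences were -0.35 for rps2, -0.33 for rps3, -0.38 for rps18 and -0.44 for rps14 (limma adjusted p = 0.375 for each).

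Large-subunit genes other than rpl36 differed by less. The gene rpl22, whose bacterial counterpart lines the exit tunnel of the ribosome, read 443, 419 and 614 in pho3, against 611, 721 and 685 in wild type. Its groups overlapped by the single crossing of pho3 replicate 3 over wild-type replicate 1, and its log2 difference was -0.47 (SE 0.18, limma adjusted p = 0.375). The gene rpl20, whose counterpart in Escherichia coli acts early in subunit assembly, read 83.1, 141 and 181 in pho3, against 164, 238 and 193 in wild type. Its log2 difference was -0.61 (SE 0.30, limma adjusted p = 0.375). The genes rpl14, rpl16 and rpl33 differed by -0.51, -0.29 and -0.26. Single arrays moved the first 2 of these, to -0.15 for rpl14 without pho3 replicate 1 and -0.09 for rpl16 without pho3 replicate 2. At the other end rpl32 read 1035, 1032 and 877 in pho3, against 959, 1062 and 1066 in wild type, with a difference in log2 of -0.07 (SE 0.12, limma adjusted p = 0.748). It was the single gene of the 26 with its lowest signal on pho3 replicate 3. Without that array its log2 difference was 0.0076.

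Of the remaining small-subunit genes, rps15 differed by -0.54, rps19 by -0.22 and rps4 by -0.21. The value of rps15 was -0.19 without pho3 replicate 1 and -0.90 without pho3 replicate 3. The arrays of rps15 overlapped widely, at 49.7, 81.2 and 133 in pho3, against 85.9, 168 and 115 in wild type. The protein of rps4 binds ribosomal RNA first during assembly in Escherichia coli. Over the 15 ribosomal genes the median log2 difference was -0.38, beside -0.0015 over all probe sets tested.

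The 4 polymerase genes encode the core of the bacterial-type plastid polymerase. The gene rpoC1, for the beta-prime subunit, read 633, 673 and 867 in pho3, against 768, 1163 and 1251 in wild type. Its pho3 replicates 1 and 2 were lowest, and pho3 replicate 3 lay above wild-type replicate 1. Its log2 difference was -0.53 (SE 0.22, limma adjusted p = 0.375). Without wild-type replicate 1, also the lowest wild-type array for rpoC1, the difference was -0.75 (SE 0.17, limma adjusted p = 0.0570) and did not pass.

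The alpha subunit gene rpoA read 372, 374 and 477 in pho3, against 424, 565 and 637 in wild type, with a difference in log2 of -0.40 (SE 0.20, limma adjusted p = 0.375). The gene rpoC2, for the beta-double-prime subunit, read 275, 262 and 348 in pho3, against 287, 479 and 296 in wild type. Its wild-type replicate 2 stood alone above the other 5 arrays, and its log2 difference of -0.23 (SE 0.24, limma adjusted p = 0.582) turned to 0.0080 without that array. The beta subunit gene rpoB read 25.1, 20.5 and 32.1 in pho3, against 20.9, 37.6 and 24.3 in wild type. It reached the 40th percentile on 2 of the 6 arrays, and the groups overlapped. The median log2 difference over the 3 polymerase genes tested was -0.40.

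**Figure D2:**
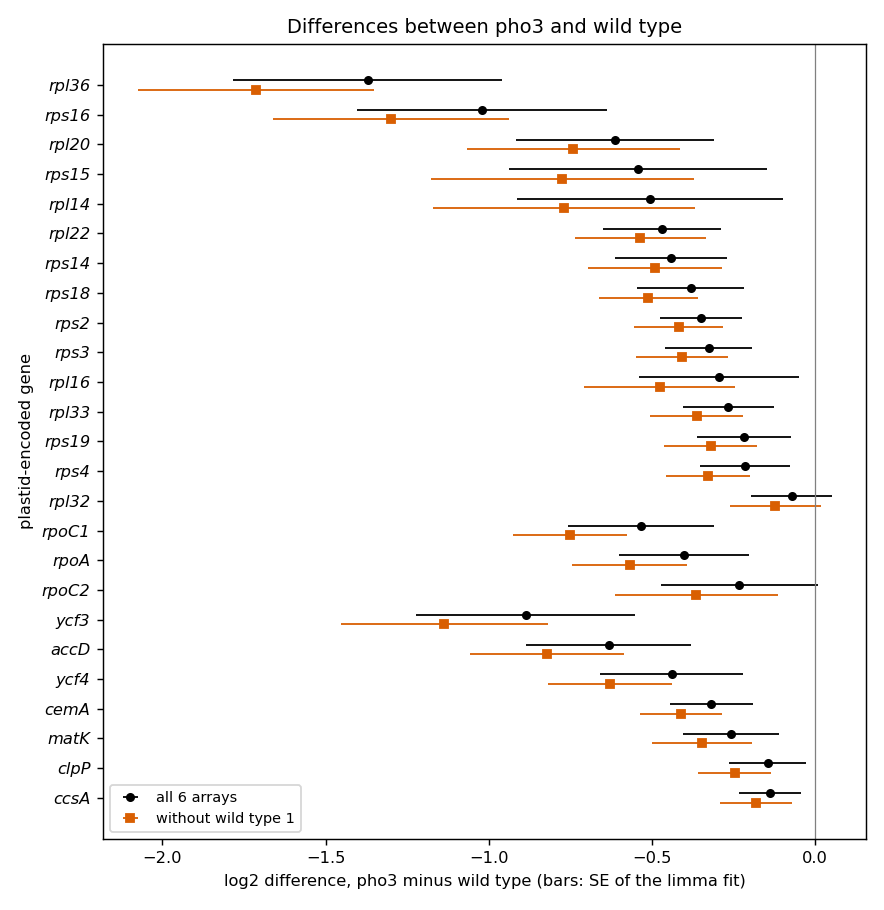
Log2 difference of pho3 minus wild type for the 25 genes tested (x axis), with all 6 arrays (black circles) and without wild-type replicate 1 (orange squares), and bars for the SE of the limma fit. All points lie below 0, from -1.37 for rpl36 to -0.07 for rpl32 with all arrays. Without wild-type replicate 1, the lowest wild-type array for 24 of these 25 genes, 1 gene, rpl36, passed the test.

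The other 7 genes hold several functions. The proteins of ycf3 and ycf4 assist the assembly of photosystem I. The gene ycf3 read 70.9, 81.7 and 144 in pho3, against 123, 235 and 181 in wild type, with a difference in log2 of -0.89 (SE 0.34, limma adjusted p = 0.375). The gene ycf4 read 761, 684 and 1009 in pho3, against 840, 1284 and 1209 in wild type, with a difference in log2 of -0.44 (SE 0.22, limma adjusted p = 0.375). In both genes pho3 replicates 1 and 2 were lowest, and pho3 replicate 3 lay above wild-type replicate 1.

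The gene accD encodes a carboxyltransferase subunit of the plastid acetyl-CoA carboxylase, which starts fatty acid synthesis. It read 216, 263 and 353 in pho3, against 324, 530 and 436 in wild type, with a difference in log2 of -0.63 (SE 0.25, limma adjusted p = 0.375). The envelope protein gene cemA read 1302, 1261 and 1466 in pho3, against 1466, 1813 and 1751 in wild type, with a difference in log2 of -0.32 (SE 0.13, limma adjusted p = 0.375). In cemA the highest pho3 array and the lowest wild-type array were level.

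The smallest differences among these 7 were those of matK, clpP and ccsA. The gene matK, for a maturase that helps to splice plastid introns, read 1374, 1050 and 1320 in pho3, against 1311, 1575 and 1576 in wild type, with a difference in log2 of -0.26 (SE 0.15, limma adjusted p = 0.385). The gene clpP encodes a catalytic subunit of the Clp protease, and ccsA encodes a protein for heme attachment to cytochromes of the c type. Their log2 differences were -0.14 each (SE 0.12 and 0.095, limma adjusted p = 0.493 and 0.435), and both were slightly above 0 after quantile normalization. The median over the 7 genes was -0.32.

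The 3 classes were then compared on each array, as the deviation of each gene from its mean over the 6 arrays. On pho3 replicates 1 and 2 the median log2 deviation was -0.29 and -0.24 for the ribosomal genes, -0.32 and -0.32 for the polymerase genes tested and -0.20 and -0.36 for the other genes. On pho3 replicate 3 it was 0.07, 0.04 and -0.0038, and on wild-type replicate 1 it was -0.06, -0.15 and -0.06. On wild-type replicates 2 and 3 it was 0.34 and 0.26 for the ribosomal genes, 0.43 and 0.45 for the polymerase genes and 0.28 and 0.23 for the other genes. The classes kept the same sign on 5 of the 6 arrays, the exception being pho3 replicate 3. The difference between classes was not tested, and with 3 polymerase genes the median rests on 1 gene.

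The photosynthesis and NDH genes of the same genome followed the same array order. The median log2 difference was -0.27 over 33 photosynthesis genes and -0.52 over 9 of 10 NDH genes tested, with 33 of 33 and 9 of 9 below 0 (24 of 33 and 8 of 9 after quantile normalization). The corresponding median over the 25 expression genes was -0.38. When each array was centred on the median of all plastid genes tested, 12 of the 25 expression genes were lower in pho3, and the median of all 13983 probe sets moved by 0.39. On that scale, which shows unequal change within the plastid transcripts alone, rpl36 differed by -0.98 (limma adjusted p = 0.208).

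**Figure D3:**
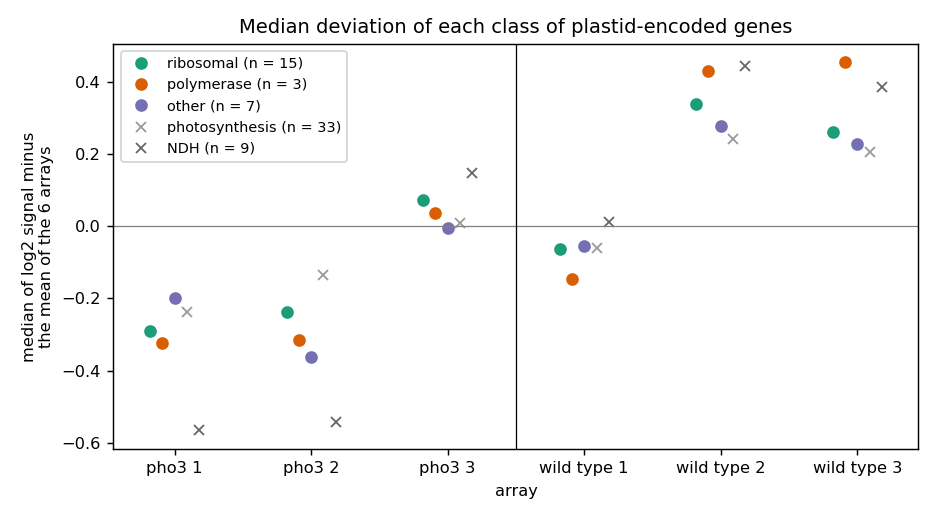
Median log2 deviation from the 6-array mean (y axis) for each class of plastid-encoded genes on each array (x axis), with 1 point per class and array; circles are the 3 classes described here and crosses the photosynthesis and NDH genes. The 3 circled classes lie between -0.36 and -0.20 on pho3 replicates 1 and 2 and between 0.23 and 0.45 on wild-type replicates 2 and 3.

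Of the array properties examined, some moved with these values and others did not. Among the control probe sets, the ratio of 3-prime to 5-prime signal of the first actin set was 4.75, 5.24 and 3.46 in pho3, against 4.23, 2.18 and 2.26 in wild type. The arrays with the highest ratios were those with the lowest plastid signals, where the median log2 deviation over the 25 genes was -0.29, -0.27 and 0.06 in pho3, against -0.06, 0.34 and 0.26 in wild type. The other 5 ratios of this kind lay between 1.08 and 2.11 and did not follow that order. Among them the second actin set read 1.84, 2.11 and 1.79 in pho3, against 1.84, 1.95 and 1.83 in wild type. The summed signal of the 8 leaf markers was 12488, 12315 and 16707 in pho3, against 15600, 18847 and 19696 in wild type. The control for 25S ribosomal RNA read 48.9, 90.3 and 51.9 in pho3, against 25.8, 180 and 28.6 in wild type. That for 5S ribosomal RNA read 14.1, 11.7 and 9.13 in pho3, against 13.9, 14.6 and 12.7 in wild type. Neither followed the order of the plastid signals. All 5S signals and the 25S signal of wild-type replicate 1 lay under the 40th percentile of their array. The part of these array properties in the differences was not tested.

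The size of the difference went with the brightness of the probe set. Over the 25 genes, Spearman's rho between mean signal and log2 difference was 0.77, a description across genes that share the same arrays. Within classes it was 0.78 over the 15 ribosomal genes and 0.96 over the 7 other genes, and ran the other way, at -1, over the 3 polymerase genes, where the brightest, rpoC1, had the largest difference. The 7 genes with a mean signal under 300 had a median difference of -0.61, the 8 between 300 and 1000 had -0.42, and the 10 above 1000 had -0.24. Of all probe sets tested with a mean above 1000, these genes among them, 73.3% of 420 were lower in pho3, with a median of -0.17. The corresponding medians of all probe sets tested were 0.01 under 300 and -0.01 between 300 and 1000. The part of brightness in the differences between genes was not tested.

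**Figure D4:**
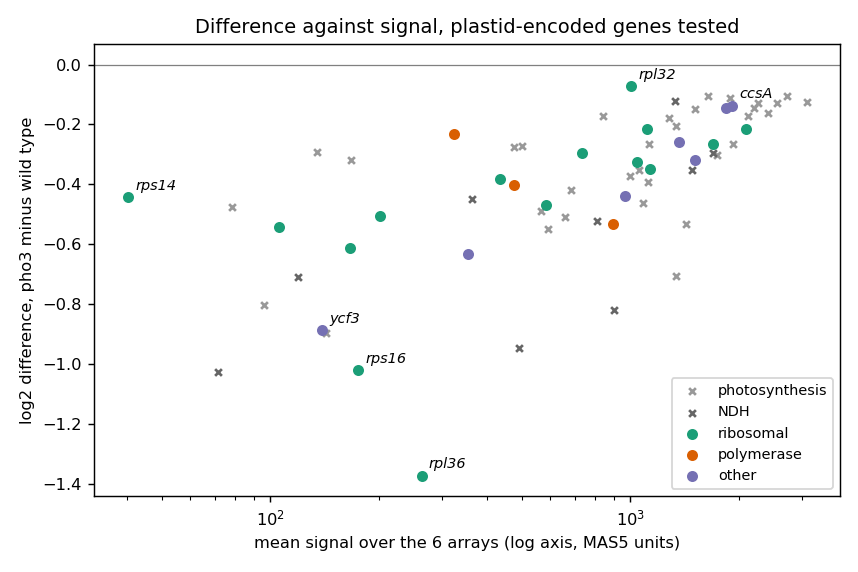
Log2 difference of pho3 minus wild type (y axis) against mean signal over the 6 arrays (x axis, log scale) for the plastid-encoded genes tested, 1 point per gene, with crosses for the photosynthesis and NDH genes. Among the expression genes the dim rpl36, rps16 and ycf3 lie lowest at -1.37, -1.02 and -0.89, with some NDH and photosynthesis genes as low as the latter 2, and bright genes such as ccsA at -0.14 lie near 0.

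Plastid genes are often transcribed together, so neighbours were compared. From background knowledge, rps19, rpl22, rps3, rpl16, rpl14, rpl36 and rpoA belong to one ribosomal protein cluster, and in locus order their log2 differences were -0.22, -0.47, -0.33, -0.29, -0.51, -1.37 and -0.40. The value of rpl36 lay below those of its nearest measured neighbours, rpl14 and rpoA, but this was not tested, and the SE of both rpl36 and rpl14 was 0.41. The neighbours rpl33 and rps18 differed by -0.26 and -0.38, and ycf4 and cemA by -0.44 and -0.32. In the rpoB operon rpoC1 and rpoC2 differed by -0.53 and -0.23. The genes clpP and rpl20, which lie in one cluster, differed by -0.14 and -0.61. The 5 intron-containing genes ranged from -1.02 for rps16 and -0.89 for ycf3 through -0.53 for rpoC1 and -0.29 for rpl16 to -0.14 for clpP.

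**Figure D5:**
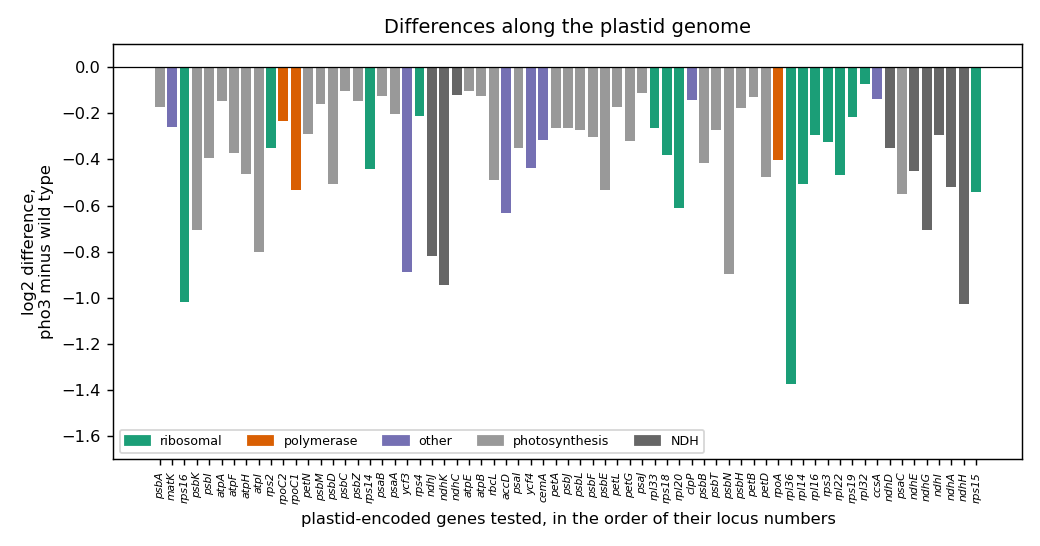
Log2 difference of pho3 minus wild type (y axis, bars from 0) for the plastid-encoded genes tested, in the order of their locus numbers (x axis), coloured by class. All bars lie below 0, and those of neighbours in the cluster from rpoA to rps19 range from -1.37 to -0.22.

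The calls depended on the 2 arrays that stood between the groups. With limma's array weights, 14 of 25 genes were called lower, against 14.5% of all probe sets tested, and 0 were called higher. Leaving out both wild-type replicate 1 and pho3 replicate 3, a fit added after the data had been seen, gave 18 of 25, against 16.5% of all probe sets tested. In that fit the log2 differences were -2.09 for rpl36, -1.65 for rps16, -1.44 for ycf3, -1.01 for accD and -0.89 for rpoC1 (limma adjusted p = 0.000987, 0.00310, 0.00349, 0.00754 and 0.00312). The 7 genes that did not pass in it were rpoC2, rps14, clpP, rpl14, rpl32, ccsA and matK, chosen for naming after their values were seen. Weights are estimated from these labels, and the second fit keeps the arrays at the ends of the order, so both counts follow in part from how the arrays were treated.

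The second question was how nuclear genes for the same machinery behaved. Of 108 nuclear genes in 6 lists, 21 have a named probe set and 20 were tested. None passed limma's test over 6 arrays or without wild-type replicate 1, and 19 of the 20 had a lower mean in pho3, where 50.2% of all probe sets tested did. Of the 41 nuclear-encoded plastid ribosomal proteins, 10 were tested and all 10 had a lower mean, as they did after quantile normalization. Their median log2 difference was -0.58, and 3 of 10 lay at an unadjusted p under 0.05 (4.85% of all probe sets tested). For all 10, wild-type replicates 2 and 3 lay above every pho3 array (26.9% of all probe sets tested). The leaf markers, nuclear genes outside these lists, had a lower mean in 8 of 8, with a median log2 difference of -0.43. For 7 of the 8, wild-type replicates 2 and 3 lay above every pho3 array, so these traits are not particular to the 6 lists.

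The largest difference in that list was that of AT5G24490, listed as PSRP1, a plastid-specific ribosomal protein. It read 313, 311 and 475 in pho3, against 439, 657 and 1044 in wild type, with a difference in log2 of -0.90 (SE 0.34, limma adjusted p = 0.375). AT3G54210, listed as the large-subunit protein PRPL17, had groups that did not overlap, with a difference in log2 of -0.42. It read 801, 812 and 1126 in pho3, against 1145, 1212 and 1267 in wild type. In the rest of the list the groups overlapped, while 5.81% of all probe sets tested were lower without overlap. Wild-type replicate 1 read below pho3 replicate 3 for 9 of the 10, against 47.3% of all probe sets tested. AT3G13120, listed as PRPS10, differed by -0.64 and AT5G65220, listed as PRPL29, by -0.48. With array weights and without both arrays, 10 of the 10 were called lower, against 14.5% and 16.5% of all probe sets tested.

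Partners of clpP and ccsA were compared with these members, without a test of the difference. The 5 tested nuclear genes of the Clp protease, of 14 listed, had a median log2 difference of -0.14, beside -0.14 for clpP. Among them AT4G12060, listed as CLPT2, differed by -0.47 and AT1G68660, listed as the adaptor CLPS1, by -0.31. AT1G09130, listed as CLPR3, differed by -0.14 and CLPP4 by -0.12. After quantile normalization the median of the 5 genes was -0.15, beside 0.010 for clpP. AT1G49380, listed as CCS1, which acts with the ccsA protein, differed by -0.60, and CcdA, a thylakoid protein of the same pathway, by -0.30, beside -0.14 for ccsA. Of the RNA processing factors, AT5G42310, listed as CRP1, differed by -0.48, AT2G37220, listed as CP29B, by -0.46 and the splicing factor CAF1 by 0.20. The phage-type polymerase AT5G15700, listed as RPOTmp, was not tested and read 7.08 to 25.6, under the 40th percentile on all arrays. The list of polymerase-associated proteins and the accD partners of the carboxylase have no named probe set here.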

How the data were processed

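Transcripts of 6 leaf RNA samples were measured on Affymetrix arrays, 1 colour, 3 arrays per group, grouped by sample title. Each array has 1 linear signal intensity for every probe set, made with MAS5 per the submitters' processing notes, which give no version. The deposited intensities have a mean of 100.0 on every array after trimming 2% at each end. With 3 arrays per group, precision differed between genes, with an SE of the log2 difference from 0.095 for ccsA to 0.41 for rpl36.

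The log2 of each signal was taken, without a pseudocount. A probe set that is no control was tested if it reached the 40th percentile of its array on 3 or more arrays, which left 13983. The test was that of limma 3.58.1 in R 4.3.3 (eBayes with trend, two-sided). Its p-values were adjusted by Benjamini-Hochberg over all of these, with a threshold of 0.05. Differences are pho3 minus wild type. The fit was also run on simulated data with independent noise and no shift shared by an array. That run does not bear on arrays that lie between the groups. Tables and figures used python 3.11.15, pandas 2.3.3 and matplotlib 3.10.9.

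Genes were named from the platform annotation (13513 single-gene, 503 several-gene and 8730 unlisted probe sets) through gene numbers to RefSeq TAIR10.1, where 13436 matched; its coordinates were not used. All members are named, and up to 4 genes of each nuclear list by lowest adjusted p, with ties, which were many, broken by the unadjusted p, a step settled after the data were seen. Members and lists were chosen with earlier results of these data known. Same-numbered arrays deviated together for numbers 1 and 3 (r = 0.39 and 0.43) but not for 2 (r = -0.27). Higher values came from unlike numbers, at 0.52 for pho3 replicate 2 with wild-type replicate 1 and 0.48 for pho3 replicate 3 with wild-type replicate 2. The other pairs of unlike number had a negative r, down to -0.62. With 3 arrays per group these values depend on each other and do not settle whether the numbers pair the arrays. The replicate block was therefore used as an alternative only. Alternatives were quantile normalization, median centring, centring on plastid genes, a pseudocount of 16, 2 other filters, no variance trend, array weights, the replicate block and each array left out.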

Additional observations from a re-analysis of the deposited data

How the results depend on the processing

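The number of plastid expression genes called lower stayed at 0 with quantile normalization, median centring, centring on plastid genes, a pseudocount of 16, no filter, a 60th percentile filter, no variance trend and the replicate block (rpl36 at -1.37, adjusted p = 0.192). It was 14 with array weights and 18 when wild-type replicate 1 and pho3 replicate 3 were both left out, a setting chosen after seeing the data, and 0 to 1 over single arrays left out. The number called higher was 0 throughout. Over all probe sets tested, 0 were higher and 0 lower, against 2237 and 2026 with array weights, 2547 and 2305 without both arrays, and 0 to 644 and 0 to 117 over single arrays left out, above 0 only without wild-type replicate 1. The count of genes with a lower mean was 22 of 25 with quantile normalization and 12 of 25 with centring on plastid genes.

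Class medians ranged over single arrays left out from -0.49 to -0.30 (ribosomal), -0.57 to -0.34 (polymerase) and -0.41 to -0.26 (other). Without both arrays the polymerase median was -0.69. Centring on plastid genes removes their shared shift by construction and gave medians of 0.010, -0.010 and 0.074. On that scale the sign turned for matK (0.13), rps2 (0.041), rpoC2 (0.16), rps4 (0.18), cemA (0.074), rpl33 (0.13), rps18 (0.010), clpP (0.25), rpl16 (0.10), rps3 (0.065), rps19 (0.17), rpl32 (0.32) and ccsA (0.25). With quantile normalization it turned for clpP (0.010), rpl32 (0.035) and ccsA (0.027), the cause not tested. It turned for rpl32 (0.0076) without pho3 replicate 3, with a range of -0.12 to 0.0076 over single arrays left out, and for rpoC2 (0.0080) without wild-type replicate 2. Leaving out 1 array moved the log2 difference by over 1.5 times for 9 of the 25 genes, with ranges of -0.78 to -0.15 (rpl14), -0.48 to -0.09 (rpl16), -0.90 to -0.19 (rps15), -0.86 to -0.30 (rpl20), -0.35 to -0.14 (matK), -0.33 to -0.13 (rps4) and -0.25 to -0.08 (clpP) beside those of rpl32 and rpoC2 (-0.36 to 0.0080).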
